A study of Mus musculus with 6 samples.

Results

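The genes described here encode the enzymes that burn glucose in the cytosol, the carriers that bring it in, and the complex that passes its carbon to the mitochondrion. They are a set of 35 listed genes of glycolysis, the pentose phosphate branch, pyruvate dehydrogenase and glucose or lactate transport, taken by name from an array of 46632 probes. Of the 35, 22 had a probe above background and were tested among 6855 genes, 9 had only probes that were not kept, and 4 (Gpi1, Pgam1, Eno1 and G6pdx) had no probe that carried their name. The comparison sets 3 samples of SclRER/RER fetal liver erythroid progenitors against 3 of wild type (WT), each on its own single-colour bead array. SclRER/RER cells are homozygous for a form of SCL, the helix-loop-helix factor made by Tal1, that cannot bind DNA. Both genotypes are labelled C57Bl/6. Per the labels, cells were taken at E12.5, grown for 3 days and depleted of maturing cells that carry Ter119. The labels do not tell separate embryos, separate cultures and pools apart. The p-values below therefore reflect the scatter among 6 samples, and part of that scatter could be technical. The sex-linked genes Xist and Eif2s3y differed between arrays of the same genotype. In log2 intensity, Xist read 5.89, 11.03 and 10.47 on SclRER/RER arrays 1 to 3 and 10.98, 9.02 and 10.61 on WT arrays. Eif2s3y read 9.89, 4.75 and 5.48, and 6.11, 9.25 and 7.77, in the same order. The 3 samples of a genotype therefore did not all come from 1 source of cells. The mature red cell, which has no mitochondria, lives on glycolysis alone. Hexokinase, phosphofructokinase and pyruvate kinase catalyse the steps of glycolysis that run 1 way and set its pace. The pentose phosphate branch makes the reducing power that guards red cells against oxidation.

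Mean deposited signal lay between 385 and 546 intensity units per array, highest on SclRER/RER array 1, and 11084 to 12678 probes were detected per array at a detection p below 0.01. Pairs of SclRER/RER arrays correlated at Pearson r of 0.975 to 0.984 over kept probes and pairs of WT arrays at 0.989 to 0.993. All 8 erythroid markers with a kept probe were detected on every array in both genotypes. Of these 8, Slc4a1, for the anion carrier of red cells, fell by 2.35 (log2, adjusted p = 0.00202) and Epor, the erythropoietin receptor, fell by 0.54 (adjusted p = 0.0199), while 6 did not pass. Hepatocyte and macrophage markers were mostly below detection, with 7 of 10 listed genes of each type detected on no array. Alb, Afp, Adgre1 and C1qa were among these. The hepatocyte marker Apoa1 and the macrophage marker Lyz2 were detected on all 6 arrays. Apoa1 differed by -0.49 (adjusted p = 0.264), with no overlap between genotypes, and Lyz2 by 0.16 (adjusted p = 0.765), with overlap. The macrophage genes Csf1r and Cd68 had no named probe. Values below are log2 intensities after background correction and quantile normalization. A difference is SclRER/RER minus WT with its standard error (SE), and adjusted p is from the limma fit over all 11578 kept probes.

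Between the genotypes, 3 of the 22 genes tested differed at an adjusted p below 0.05, and these differences were small. Pkm, for pyruvate kinase, and Pfkp, for a phosphofructokinase subunit, fell in SclRER/RER, while Slc2a3, for the glucose carrier GLUT3, rose. Each changed by between 1.39-fold and 1.43-fold. Of the 22 genes tested, 1 rose, 2 fell and 19 did not pass an adjusted p of 0.05. Over all genes tested the threshold was passed by 6.58%, with 3.01% lower and 3.57% higher. The median difference of the 22 was -0.09, beside 0.02 for all genes tested. The genotypes did not overlap for 10 of the 22, 9 lower and 1 higher, where 25.4% of all genes did not overlap, 11.4% lower and 13.9% higher. In these bulk samples, fewer cells that express a gene and less of its RNA per cell cannot be told apart.

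**Figure D1:**
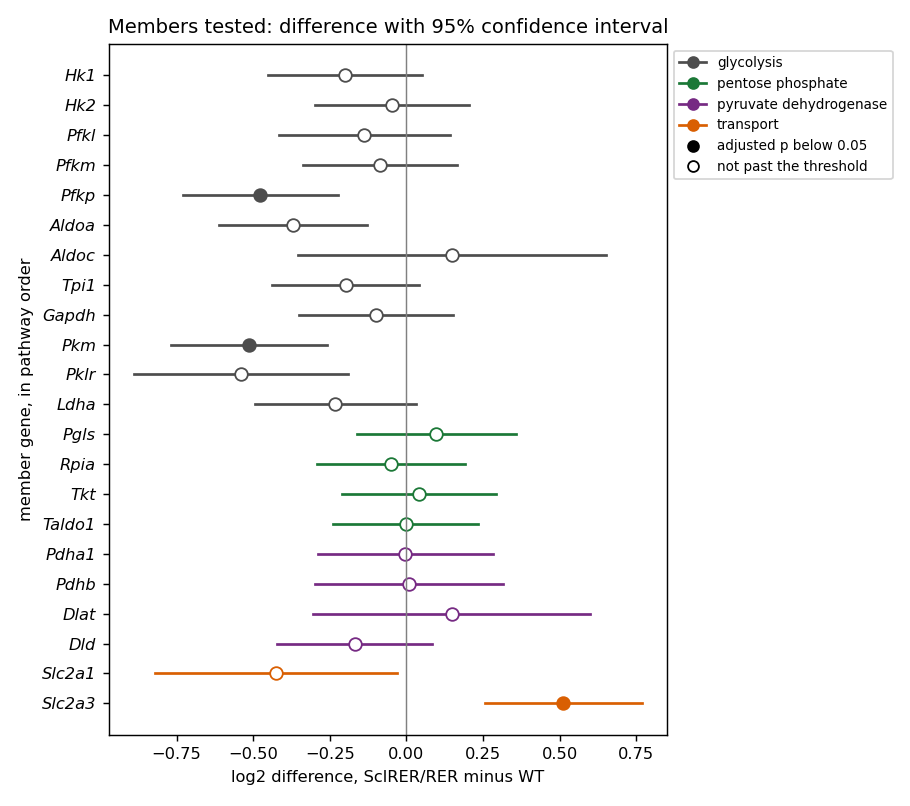
Each row is a tested gene in pathway order and the horizontal axis is the log2 difference, SclRER/RER minus WT, with its 95% confidence interval. Filled circles mark Pfkp (-0.48), Pkm (-0.51) and Slc2a3 (0.51), the genes with an adjusted p below 0.05, and colours mark the branch.

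Pkm encodes the pyruvate kinase of most tissues, which makes pyruvate and ATP in the last step of glycolysis. Its probe (ILMN_2756041) read 12.01, 11.78 and 11.92 on SclRER/RER arrays 1 to 3, and 12.40, 12.46 and 12.40 on WT arrays 1 to 3. Every SclRER/RER array was below every WT array, and the WT arrays lay close together. Pkm fell by 0.51 on the log2 scale (SE 0.11, 95% confidence interval -0.77 to -0.26, adjusted p = 0.0304), so that WT held 1.43-fold more. In the deposited signals, before any scaling, Pkm stood at 5552, 2977 and 3637 units in SclRER/RER and 5454, 5878 and 4770 units in WT. The genotypes overlapped there through SclRER/RER array 1, the array with the highest mean signal. The call was lost without SclRER/RER array 2 (adjusted p = 0.106), WT array 1 (0.0846), WT array 2 (0.144) or WT array 3 (0.104), and with arrays scaled to their 75th percentile (0.213). A second Pkm probe was detected on no array, and the M1 and M2 splice forms were not told apart here.

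The start regions of the genes that fell are shown because SCL and its partner GATA1 are known to bind E-box and GATA motifs. The windows run from 250 bases before to 50 after a start site, are from RefSeq on build GRCm38.p6, and read 5′ to 3′ as the table gives them. Of the 3 genes past the threshold, 2 had a window in the table, Pkm with a pair of start sites. Capitals mark every match to CANNTG (the E-box), GATA or ACGTG (the core of the hypoxia response element) on either strand, so that TATC and CACGT are the reverse forms. CANNTG and ACGTG can overlap.
Pkm, upstream start, chr9:59656326-59656625, + strand: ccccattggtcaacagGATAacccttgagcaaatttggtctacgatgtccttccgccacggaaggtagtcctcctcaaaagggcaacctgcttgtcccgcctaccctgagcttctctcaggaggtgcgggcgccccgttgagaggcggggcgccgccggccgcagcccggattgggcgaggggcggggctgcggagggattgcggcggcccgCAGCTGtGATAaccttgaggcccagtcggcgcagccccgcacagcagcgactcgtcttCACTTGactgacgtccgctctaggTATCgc
Pkm, downstream start, chr9:59656977-59657276, + strand: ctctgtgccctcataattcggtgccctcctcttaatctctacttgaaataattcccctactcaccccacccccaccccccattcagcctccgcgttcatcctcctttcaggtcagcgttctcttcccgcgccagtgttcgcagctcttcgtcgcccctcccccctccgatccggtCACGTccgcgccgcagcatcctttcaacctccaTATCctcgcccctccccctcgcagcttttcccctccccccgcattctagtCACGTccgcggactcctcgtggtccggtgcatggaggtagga
Pfkp, chr13:6648722-6649021, - strand: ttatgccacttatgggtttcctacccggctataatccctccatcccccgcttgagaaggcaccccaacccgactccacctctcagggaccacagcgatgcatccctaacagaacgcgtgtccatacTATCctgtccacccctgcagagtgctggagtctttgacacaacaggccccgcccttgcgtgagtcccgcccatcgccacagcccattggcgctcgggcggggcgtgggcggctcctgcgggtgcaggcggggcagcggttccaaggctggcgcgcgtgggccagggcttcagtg
The upstream Pkm window held 2 E-boxes, CAGCTG at position -38 before the start site and CACTTG after it, and 3 GATA matches, of which 1 began at -31. The downstream Pkm window held no E-box, 1 GATA match and 2 matches to ACGTG. The Pfkp window held 1 GATA match and neither of the other motifs. An E-box followed after 8 or 9 bases by GATA occurred in none of the 3 windows and in 1.18% of all 32851 windows of this length. CANNTG alone was in 72.3%, GATA in 57.9% and ACGTG in 19.6% of them, so most of these matches are common. A match here describes the letters and no binding was measured.

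Pfkp encodes the platelet-type subunit of phosphofructokinase, the enzyme that commits sugar to glycolysis. On its brightest probe (ILMN_1237695) it read 9.85, 9.70 and 9.87 on SclRER/RER arrays, and 10.29, 10.22 and 10.34 on WT arrays. The genotypes did not overlap. Pfkp fell by 0.48 on the log2 scale (SE 0.11, confidence interval -0.73 to -0.22, adjusted p = 0.0404), a level 1.39-fold higher in WT. Before any scaling, the deposited signals of this probe were 1325.9, 740.8 and 889.9 units in SclRER/RER and 1340.5, 1344.9 and 1172.3 units in WT. There the genotypes overlapped through SclRER/RER array 1. A second kept probe read 8.37, 8.21 and 8.24 in SclRER/RER and 8.24, 8.60 and 8.79 in WT, overlapped between genotypes and differed by -0.27 (SE 0.15, adjusted p = 0.4). With both probes averaged the difference was -0.37 (adjusted p = 0.107). The call was also lost with probes detected on at least 1 array admitted (adjusted p = 0.051), with 75th percentile scaling (0.228), and without SclRER/RER array 1 (0.0598) or 2 (0.13) or WT array 1 (0.112), 2 (0.127) or 3 (0.151). The other subunit genes of the enzyme did not pass. Pfkm, the muscle-type subunit, read 12.20, 12.29 and 12.09 in SclRER/RER and 12.32, 12.22 and 12.31 in WT, which overlap. Its difference was -0.09 (confidence interval -0.34 to 0.17, adjusted p = 0.754), and Pfkl, the liver type, differed by -0.14 (-0.42 to 0.14, adjusted p = 0.619).

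Platelet-lineage RNA moved in the same samples as Pfkp. Of 10 megakaryocyte markers listed, 8 had a probe, 4 were tested and all 4 fell, which were Ppbp (-1.88), Pf4 (-1.31), Treml1 (-1.21) and Vwf (-0.98). Their summed intensity was between 507 and 731 units on SclRER/RER arrays and between 1404 and 1757 on WT arrays. Itgb3 and Gp1bb, defining integrin and glycoprotein genes of that lineage, were detected on no array, and Itga2b and Gp9 were not kept. The part of these cells in the Pfkp difference was not tested.

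Slc2a3 encodes GLUT3, a glucose carrier with high affinity for its substrate. Its probe (ILMN_2616565) read 12.28, 12.25 and 12.44 on SclRER/RER arrays, and 11.88, 11.75 and 11.80 on WT arrays. All SclRER/RER arrays were above all WT arrays. Slc2a3 rose by 0.51 (SE 0.11, confidence interval 0.26 to 0.77, adjusted p = 0.0304), or 1.43-fold. The deposited signals, before any scaling, were 6711, 4117 and 5158 units in SclRER/RER and 3867, 3634 and 3171 units in WT, and did not overlap either. The call was lost without SclRER/RER array 2 (adjusted p = 0.066) or WT array 1 (0.0693), 2 (0.149) or 3 (0.113), and narrowly with 75th percentile scaling (0.0531). Granulocytes also use this carrier. The summed intensity of the 9 granule markers tested was 10762, 6144 and 4435 units on SclRER/RER arrays 1 to 3, and 7681, 7889 and 6971 on WT arrays. Of the 9, Ctsg, Mpo and Prtn3 fell and none rose. The part of granulocytes in the Slc2a3 difference was not tested.

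Slc2a1, for the glucose carrier GLUT1, lay the other way without passing the test. It read 10.56, 9.95 and 10.49 in SclRER/RER and 10.89, 10.71 and 10.68 in WT, which do not overlap. Its deposited signals did overlap, through SclRER/RER array 1 (2126.3 units, against 1459.7 to 1998.3 in WT). The log2 difference was -0.43 (SE 0.17, confidence interval -0.82 to -0.03, adjusted p = 0.219), and SclRER/RER array 2 was the lowest. It passed under none of 18 alternatives, with adjusted p between 0.0565 and 0.52. The log2 ratio of Slc2a3 to Slc2a1 within an array, compared after the values of both were seen, was higher in SclRER/RER by 0.94 (SD 0.30 among the 3 SclRER/RER ratios and 0.07 among the 3 WT ratios). All 3 SclRER/RER ratios were above all WT ratios, with an exact two-sided permutation p of 0.1, the smallest that 3 arrays against 3 allow, and 0.15 adjusted over the 3 ratios computed. The ratio difference stayed between 0.78 and 1.07 over 11 alternatives in scaling, background and arrays left out. The lactate carriers could not be compared. The Slc16a1 probe (MCT1) was detected on no array, and of the 2 probes of Slc16a3 (MCT4) 1 was detected on 1 array of each genotype and the other on none.

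**Figure D2:**
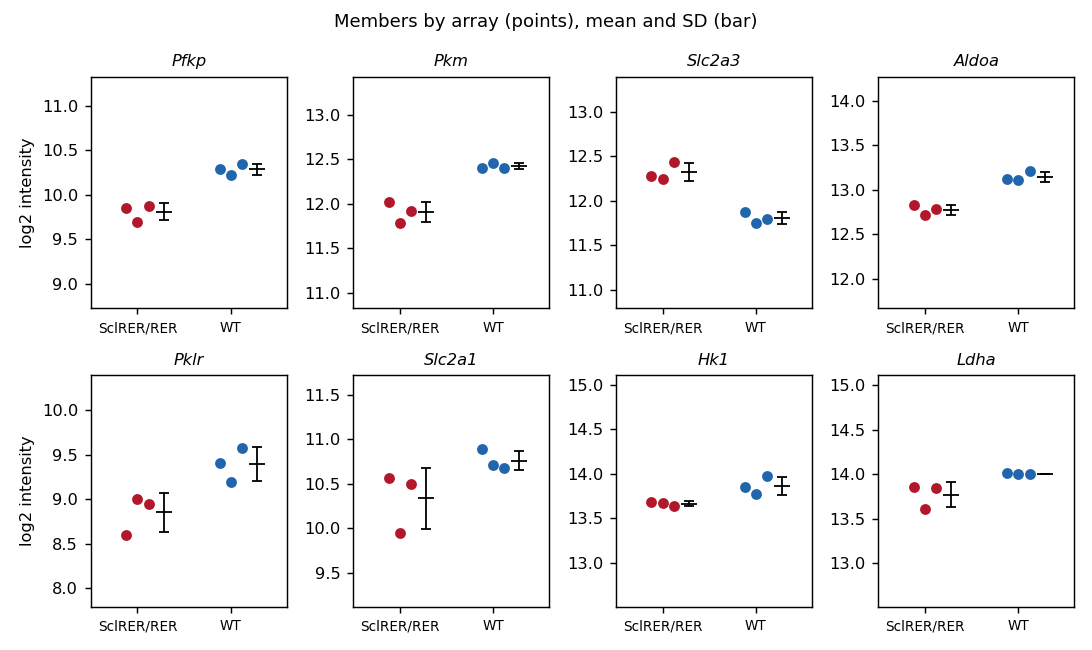
Log2 intensity of 8 genes on each of the 3 SclRER/RER arrays (left, red) and 3 WT arrays (right, blue), with mean and SD as black bars and a vertical span that is the same in every panel. The genotypes do not overlap in any of the 8 panels, and only Slc2a3 is higher in SclRER/RER.

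The remaining glycolytic genes gave small differences, none past the threshold, mostly below 0. Of the 12 glycolytic genes tested, 0 rose, 2 fell and 10 did not pass, with a median difference of -0.20. The difference was below 0 for 11 of the 12, Aldoc being the exception, where 46.6% of all genes lay below 0. Erythroid markers lay below 0 for 6 of 8 tested, with a median difference of -0.35 and summed intensities of 49986 to 56734 units on SclRER/RER arrays and 54464 to 61988 on WT arrays. Their part in the glycolytic differences was not tested. With 75th percentile scaling, which moved the median of all genes to 0.08, 9 of the 12 glycolytic genes lay below 0 and their median was -0.09. Hk2 and Pfkm then lay above 0. All representative probes of the 22 tested genes were detected on all 6 arrays, so none entered through 1 genotype. Pklr, the liver and red cell pyruvate kinase whose loss causes haemolytic anaemia in humans, read 8.60, 9.01 and 8.95 in SclRER/RER and 9.41, 9.20 and 9.57 in WT. The genotypes did not overlap, but at -0.54 (SE 0.15, confidence interval -0.89 to -0.19) Pklr missed the threshold, with an adjusted p of 0.0797. It passed under 1 of 18 alternatives, a trended and robust moderation (adjusted p = 0.048). The log2 ratio of Pkm to Pklr differed by 0.03 between the genotypes (SD 0.33 in SclRER/RER and 0.22 in WT), with overlapping values (exact permutation p = 1). For the ratio of Pfkp to Pfkm the difference was -0.39 (SD 0.19 in SclRER/RER and 0.03 in WT), with no overlap and p = 0.1 in the exact permutation test, or 0.15 adjusted over the 3 ratios. This ratio rests on the Pfkp probe already called, over a Pfkm probe that differed by -0.09, so it largely repeats that call. The second kept Pfkp probe, which differed by -0.27 with overlap, was not used in it.

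Aldoa, the main aldolase, which splits the 6-carbon sugar, read 12.83, 12.72 and 12.78 in SclRER/RER and 13.11, 13.11 and 13.21 in WT. It differed by -0.37 (SE 0.11, confidence interval -0.61 to -0.13), with no overlap, and missed the threshold (adjusted p = 0.0823). Aldoa passed under 5 of 18 alternatives, among them the authors' normalized values (adjusted p = 0.0464), array weights (0.045) and no background correction (0.0449). Hexokinase traps glucose in the cell, and Hk1, its red cell form, read 13.68, 13.67 and 13.63 in SclRER/RER against 13.84, 13.77 and 13.97 in WT. These do not overlap, and the difference was -0.20 (confidence interval -0.45 to 0.05, adjusted p = 0.374). On a second kept Hk1 probe the genotypes overlapped, with a difference of -0.13 (adjusted p = 0.705). Hk2 differed by -0.05 (-0.30 to 0.20, adjusted p = 0.879). Ldha, which turns pyruvate into lactate, read 13.86, 13.61 and 13.84 in SclRER/RER and 14.01, 14.00 and 14.00 in WT. The separation came with a difference of -0.23 (confidence interval -0.50 to 0.03, adjusted p = 0.32). Before any scaling, the deposited signals of Aldoa, Hk1 and Ldha overlapped between genotypes, each through SclRER/RER array 1.

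Tpi1, triosephosphate isomerase, gave -0.20 (adjusted p = 0.357) with its brightest probe and -0.11 with the other. Gapdh, widely used as a reference gene, had 3 kept probes that differed by -0.11 to -0.05, with overlapping values. The brightest of them lay 0.38 below the top of the scale (15.26), which leaves little room to read an increase. Aldoc, the brain aldolase, was the most variable of the 22, at 9.04, 8.55 and 8.10 in SclRER/RER against 8.57, 8.26 and 8.42 in WT, a difference of 0.15 (confidence interval -0.35 to 0.65, adjusted p = 0.793).

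The pentose phosphate branch showed no gene past the threshold. Of 7 genes listed, 4 were tested, and their differences lay between -0.05 and 0.10. Taldo1, transaldolase, read 13.54, 13.57 and 13.53 in SclRER/RER and 13.50, 13.55 and 13.60 in WT, with a confidence interval of -0.24 to 0.23. Rpia, ribose phosphate isomerase, had an interval of -0.29 to 0.19, and Tkt, transketolase, of -0.21 to 0.29. On the brightest probes of the 4 genes the intervals reached from -0.29 to 0.36. Tkt also lay near the top of the scale, 0.60 below it. Pgls, the lactonase of the oxidative steps, gave unlike results on its probes. Its brightest probe differed by 0.10 (adjusted p = 0.725), while a dimmer probe read 7.49, 7.83 and 7.39 in SclRER/RER and 6.92 to 7.21 in WT, a difference of 0.52 with no overlap (confidence interval 0.18 to 0.86, adjusted p = 0.0806). The deposited signals of the dimmer probe overlapped between genotypes. A dim second probe of Tkt differed by 0.64 (confidence interval 0.12 to 1.16, adjusted p = 0.158) and was detected on 2 SclRER/RER arrays and 1 WT array. Of the oxidative enzymes, Pgd had 1 probe, detected on no array, so the NADPH-making steps were not measured here.

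Pyruvate dehydrogenase joins glycolysis to the mitochondrion, and 4 of its 5 listed subunit genes were tested with none past the threshold. On their brightest probes the differences lay between -0.17 and 0.15. Pdha1, the catalytic alpha subunit encoded on the X chromosome, read 12.16, 11.92 and 11.84 in SclRER/RER and 12.09, 11.92 and 11.92 in WT, overlapping, with an interval of -0.29 to 0.28. Xist read 5.89, 11.03 and 10.47 on the same SclRER/RER arrays, and 10.98, 9.02 and 10.61 on the WT arrays, so the arrays were not matched in Xist. Pdhb, the beta subunit, differed by 0.01 on its brightest probe and -0.08 on its other. Dlat, the acetyltransferase core, differed by 0.15 (confidence interval -0.31 to 0.60). Dld, the dehydrogenase that the complex shares with others, read 11.66, 11.65 and 11.69 in SclRER/RER and 11.85, 11.94 and 11.72 in WT. Those values do not overlap, though the deposited signals do, and the difference of -0.17 did not pass (adjusted p = 0.478). On a second kept Dld probe, detected on 1 SclRER/RER array and 3 WT arrays, the genotypes overlapped. Its difference was -0.36 (adjusted p = 0.61).

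The other 9 genes with a probe could not be compared, since their probes were detected on fewer than 3 arrays. Pgk1, Eno2, Ldhb, Pgd, Rpe, Pdhx and Slc16a1 were detected on no array of either genotype. Pgk1 encodes an enzyme that every glycolytic cell uses, so its single probe, which read 4.65 to 4.76 on all arrays, tells nothing of the gene's level. Bpgm, which makes the bisphosphoglycerate that tunes oxygen release from haemoglobin, had 1 probe detected on 2 SclRER/RER arrays and no WT array. It read 6.66, 6.53 and 6.27 in SclRER/RER, the last below detection, and 5.88, 6.12 and 6.18 in WT. This difference was not tested, and the other Bpgm probe was detected on no array.

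Beside the pathway's own enzymes, Pdk1 fell by 2.32-fold and Gfpt2 rose by 2.37-fold, and both passed the threshold under all 18 alternatives, the smallest log2 differences among these being -0.97 for Pdk1 and 0.97 for Gfpt2. A list of 99 further genes of sugar phosphate control, gluconeogenesis, side entries, isoenzymes, pyruvate dehydrogenase control and other carriers had 42 tested, of which 2 rose, 5 fell and 35 did not pass. Of the 5, Pcx and Emb were kept through their WT arrays alone, where both were higher. The median difference of the 42 was -0.01, beside 0.02 for all genes, of which 6.58% passed. Pdk1 encodes a kinase that shuts off pyruvate dehydrogenase. It read 9.92, 10.01 and 9.59 in SclRER/RER and 11.01, 11.06 and 11.08 in WT. The groups were far apart, and Pdk1 fell by 1.21 (SE 0.13, adjusted p = 0.00133), a level 2.32-fold higher in WT. It passed under all 18 alternatives, with adjusted p between 8.4e-05 and 0.0133. Its other kept probe differed by -0.73 (SE 0.22) and did not pass (adjusted p = 0.092).

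Gfpt2, an enzyme that diverts fructose 6-phosphate to amino sugars, read 8.49, 8.89 and 8.42 in SclRER/RER and 7.56, 7.22 and 7.30 in WT. It rose by 1.24 (SE 0.16, adjusted p = 0.00258), or 2.37-fold, and by 1.27 on its second kept probe (adjusted p = 0.000688). Pcx, pyruvate carboxylase, which feeds pyruvate into oxaloacetate, was detected on all WT arrays and no SclRER/RER array. It read 5.72, 5.62 and 5.15 in SclRER/RER and 6.51, 6.71 and 6.53 in WT, at least 1.26-fold lower in SclRER/RER (adjusted p = 0.00573). Since the filter kept Pcx through WT alone, that p is no support of its own, and with detection required on all 6 arrays Pcx was not tested.

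Gys1, the glycogen synthase of tissues other than liver, read 8.01, 7.41 and 7.25 in SclRER/RER and 8.84, 8.62 and 8.44 in WT, and fell by 1.08 (SE 0.20, adjusted p = 0.0169). The call was lost without SclRER/RER array 2 (adjusted p = 0.0587), WT array 1 (0.0566) or WT array 2 (0.0792), and with no detection filter (0.0964). Gys1 lies on chromosome 7, as do the tested members Aldoa, Ldha and Taldo1. On that chromosome 10.6% of tested genes passed, beside 6.58% of all genes, and on chromosomes 1 and 8 the shares were 10.6% and 11%. These were the highest shares among the chromosomes in these same data. Of the members tested, 4 lay on chromosomes 1, 7 or 8, and 0 of these passed the threshold. Emb, embigin, a chaperone of lactate carriers, was detected on the 3 WT arrays alone and stood at least 1.70-fold lower in SclRER/RER (adjusted p = 0.0142). Its p is no support for the same reason as that of Pcx. Emb was not tested with detection on all 6 arrays or with the deposited scores, and its call was lost without WT array 2 (adjusted p = 0.0799) and with no detection filter (0.0647). Stom, stomatin, a red cell membrane protein that binds GLUT1, read 10.28, 10.38 and 10.01 in SclRER/RER and 11.02, 10.70 and 10.83 in WT. Stom fell by 0.62 (SE 0.14, adjusted p = 0.0363), and its call was lost on leaving out any array (adjusted p between 0.0518 and 0.117), with 75th percentile scaling (0.137) or no detection filter (0.101). Bckdhb, a subunit of the related branched-chain ketoacid dehydrogenase, rose by 0.73 (SE 0.17, adjusted p = 0.0424), which was lost on leaving out any array but WT array 1 (0.0667 to 0.118), with 75th percentile scaling (0.0708), detection on at least 1 array (0.0522) or no filter (0.151).

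**Figure D3:**
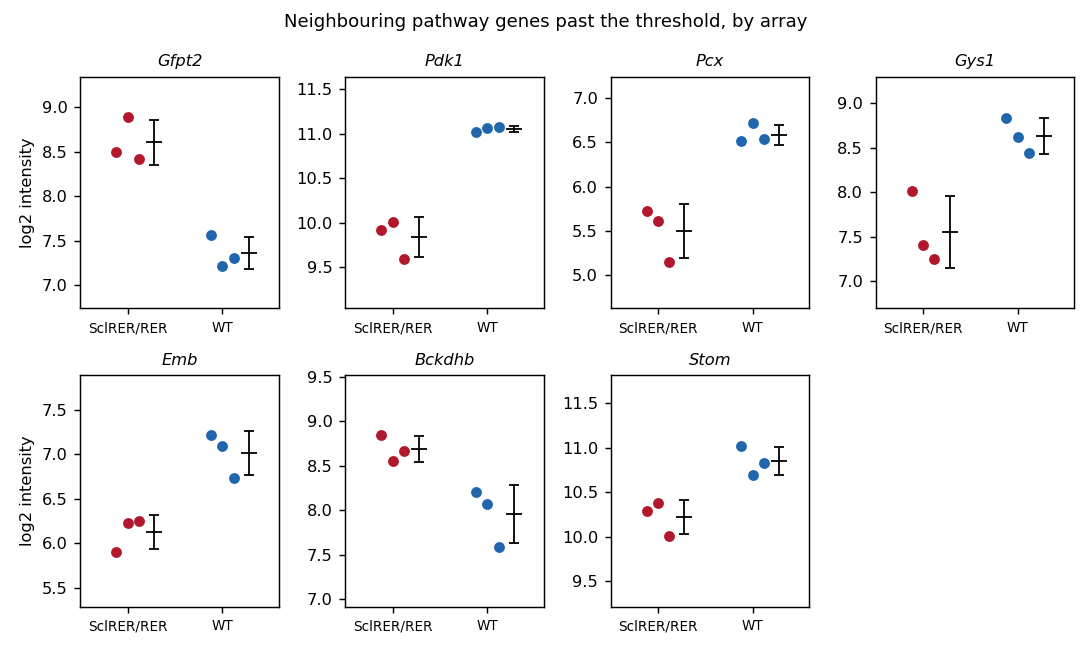
Log2 intensity of the 7 neighbouring genes past the threshold on each SclRER/RER array (left, red) and WT array (right, blue), with mean and SD as black bars and 1 vertical span in every panel. Gfpt2 and Bckdhb are higher in SclRER/RER and the other 5 are lower, and Pcx and Emb were detected on no SclRER/RER array.

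**Figure D4:**
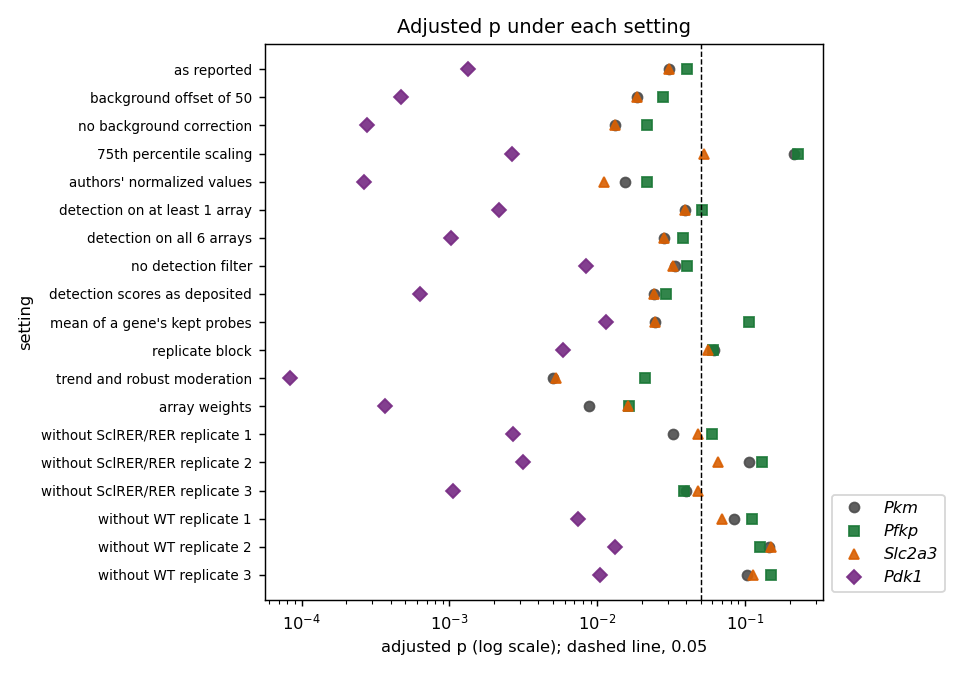
Adjusted p on a log scale for Pkm, Pfkp, Slc2a3 and the neighbouring gene Pdk1 under the reported setting and 18 alternatives, with the threshold of 0.05 as a dashed line. Pdk1 stays left of the line throughout, while each of the others crosses it under several settings, among them the 75th percentile scaling and each WT array left out.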

How the data were processed

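Total RNA was labelled with biotin and hybridised to 6 bead arrays, per the labels' protocols. The deposited non-normalized table gives 1 linear signal intensity per probe and array, not normalized between arrays, since their medians differ. Beside it stands a deposited detection score, a fraction that rises with the signal and was read as 1 minus the detection p. On WT array 3 the score did not follow the signal (Spearman 0.899, against 0.996 or more elsewhere), so it was replaced, rank by rank of signal, with the mean of WT arrays 1 and 2. The authors' second deposited table has linear intensity after quantile normalization, as its equal medians of 83.7 show. The submitters' processing notes name limma.

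The tools were R 4.3.3 and limma 3.58.1. Background correction used the normal-exponential model, with its parameters inferred from the detection p and an offset of 16, followed by quantile normalization and log2. Kept probes had a detection p below 0.01 on 3 or more arrays. A model with genotype alone was fitted by lmFit and eBayes, tested two-sided and adjusted by Benjamini-Hochberg over all kept probes, and the fit was tested on simulated data. Each gene stands on its brightest kept probe. Of the probes, 29976 had 1 gene symbol, 10 several and 16646 none, and 29921 had an identifier in the RefSeq table of GRCm38.p6, used for names. A probe detected on no array of a genotype has a bound there, the brighter mean against the lowest signal among detected probes on the other arrays, or the probe's own where higher.

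The members and lists were chosen with earlier results of these data known. Values per array were given for genes past the threshold, for those with separated genotypes that differed by at least 0.4, for the brightest isoenzyme of each step with several genes, and for some further members named after their values were seen. Of the neighbouring lists only genes past the threshold were named. Alternatives covered background, scaling, detection filter, probe choice, moderation, weights, a replicate block and each array left out. The number of arrays limits the precision. Labels and headers gave no batch.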

Additional observations from a re-analysis of the deposited data

How the results depend on the processing

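Pkm, Pfkp and Slc2a3 kept their direction under all 18 alternatives, and passed the threshold under 12, 9 and 12 of them. With arrays scaled to the 75th percentile, 0 member genes and 0 member probes passed and the members' median difference was -0.014, where that of all genes was 0.08, beside -0.09 for the members and 0.02 for all genes as reported. Trended and robust moderation gave 5 member genes and 5 member probes. Array weights gave 5 member probes and 704 of all genes, against 451 as reported. With no detection filter 3 neighbouring genes passed, against 7. Leaving out 1 array at a time gave 0 to 3 member genes, 0 to 4 member probes, 3 to 6 neighbouring genes and 192 to 602 of all genes. Of these, 0 members passed without SclRER/RER array 2 or any of the WT arrays. A replicate block gave 0 member genes and 0 member probes, with adjusted p of 0.0564 for Slc2a3, 0.0608 for Pfkp and 0.0611 for Pkm, and 0.0541 for the neighbouring gene Stom. The labels do not say whether samples of the same number were paired. Deviations of same-numbered arrays correlated at 0.16, -0.03 and 0.07, and 3 of 6 arrays correlated best with their own number. With 3 arrays per genotype these values cannot decide whether the numbers mark pairs. The cause of these changes was not tested. Levels within 1 log2 unit of the highest value, those of Gapdh and Tkt, could hide a rise, and the probes of 9 members read too near background to be compared.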
